A study of Mus musculus with 36 samples.

Results

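Cyclin mRNAs were followed through the P-bodies, cytoplasm and polysomes of mouse cells. The set held the 9 cyclin genes that drive the cell cycle (Ccnd1, Ccnd2, Ccnd3, Ccne1, Ccne2, Ccna2, Ccnb1, Ccnb2 and Ccnf), taken by gene symbol. All 9 were present among the 25239 genes of the P-body count table, the 25229 genes of the polysome count table and the 48440 genes of the Ago2 knockout (KO) table. Across these tables, 36 libraries were compared.

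P-bodies, membraneless granules that store untranslated mRNA, were sorted as GFP-LSM14A particles out of a cytoplasmic lysate, and a portion kept back before sorting gave the cytoplasm library. With 2 libraries per fraction, this covered embryonic stem (ES) cells in the naive and in the primed state, embryonic fibroblasts (MEFs), MEFs at day 3 of doxycycline-induced OKSM reprogramming with a control or a Nudt21 shRNA, and Ago2 KO ES cells. With 3 libraries per fraction, polysome and total RNA were taken from ES cells carrying an FKBP12 F36V degron at Ddx6, given DMSO (control) or dTAG-13, which degrades the DDX6 protein. The dTAG-13 treatment lasted a few hours, and the polysome libraries came from pooled ribosome-containing gradient fractions. The study calls its replicates biologically independent, while the labels name no separate cultures, and p-values measure the spread between these libraries.

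The ES lines derived from v6.5, a C57BL/6 × 129S4Sv/Jae F1 line. Naive cells were kept in medium with LIF and a pair of kinase inhibitors, and primed cells were made from them with activin A, bFGF and serum replacement. The Ago2 KO and degron lines were made by CRISPR and grown from sorted single cells, how many clones gave the libraries was not stated, and the DMSO controls carried the same Ddx6 degron allele. The MEFs for reprogramming came from mid-gestation embryos of mice with an inducible OKSM cassette at Col1a1, M2-rtTA at Rosa26 and a Pou5f1-EGFP reporter. The study also derived MEFs from CD1 wild-type mice, and the labels do not name the genotype of the uninduced MEFs. Every sorted line carried the GFP-LSM14A transgene.

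Cyclins are the regulatory subunits that switch on cyclin-dependent kinases (CDKs), and most rise and fall once per cell cycle. D-type cyclins pair with CDK4 and CDK6 and couple growth signals to RB phosphorylation, E-type cyclins pair with CDK2 at the entry into S phase, cyclin A2 acts through S phase and G2, and B-type cyclins pair with CDK1 for mitosis. Cyclin F is the outlier of the family, since it binds no CDK and instead recruits substrates to an SCF ubiquitin ligase. ES cells divide quickly with a short G1 phase.

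The libraries held 6769731 to 31185874 reads in genes in the P-body table, 13308782 to 29362195 in the polysome table and 15624401 to 17486268 in the Ago2 KO table. Levels below are CPM, counts scaled to library size with TMM factors over the libraries of 1 table, and levels from different tables are not compared by a test. Nudt21 lay between 4.87 and 5.94 CPM in the knockdown and between 88.9 and 110 CPM in the day 3 control, and Ago2 lay between 2.54 and 4.83 CPM in the Ago2 KO. Ddx6 mRNA does not check a protein degron. The 6 fibroblast markers summed to 12021 CPM or more in MEF libraries and to 3.91 CPM or less in the naive, Ago2 KO and degron ES cells, while the 6 pluripotency markers summed to at most 1.16 CPM in MEFs and to 4252 CPM or more in naive cells. The 5 primed markers summed to 388 to 615 CPM in primed cells and to 43.5 to 97.1 CPM in naive cells. The Ago2 KO cytoplasm libraries stood apart in that 10 genes held 25% and 41.6% of their reads, and each Ago2 KO value that was called is given without them as well.

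The cyclin genes differed widely in how their transcripts are built. In GENCODE M21 on GRCm38, Ccne2 lies at chr4:11191351-11204779 on the plus strand, and its longest transcript of 3006 bases had a GC content of 35.0%, lower than that of all but 1.11% of 21866 protein-coding genes. Its paralog Ccne1, at chr7:38097984-38107534 on the minus strand, had a transcript of 2000 bases with 52.7% GC. The 3′ UTR of Ccne2 (1681 bases, 29.7% GC) held 7 ATTTA pentamers, the core of AU-rich elements, against a mean of 3.16 in 2797 3′ UTRs within 20% of its length. Those 3′ UTRs were not matched on GC, and the part of base composition in this count was not tested. The 3′ UTR of Ccne1 (531 bases, 51.6% GC) held 0, where 53.8% of 3′ UTRs of like length held at least 1. Ccnd2 (chr6:127125162-127152193, minus strand) had the longest transcript at 6330 bases, of which 5173 were 3′ UTR, and held 2 ATTTA pentamers against a mean of 9.79 at that length. Ccnd3 (chr17:47505051-47599691, plus strand) had the highest GC content at 58.4%, and the median over all coding genes was 49.1%.

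MicroRNAs guide Argonaute proteins, among them AGO2, to 3′ UTRs through the seed, and the Ago2 KO libraries make the seed sites of these genes worth showing. Of the 4 miRNAs searched, let-7a is linked to differentiated cells, miR-16 and miR-34a to cell cycle arrest, and miR-291a belongs to the cluster that dominates the miRNAs of mouse ES cells. Their mature sequences, from RefSeq on GRCm38.p6, are shown with the seed (bases 2 to 8) in capitals.
let-7a-5p: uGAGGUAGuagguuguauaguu
miR-16-5p: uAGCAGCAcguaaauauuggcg
miR-291a-3p: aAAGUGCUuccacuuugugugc
miR-34a-5p: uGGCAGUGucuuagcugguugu

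The DNA site searched on the transcript strand was CTACCTC for let-7a-5p. It was TGCTGCT for miR-16-5p. It was AGCACTT for miR-291a-3p. It was CACTGCC for miR-34a-5p. A match is a description of the letters and not a shown binding site. The miR-291a-3p site was present once in Ccnd1 and once in Ccnd2, and in none of the other 7 cyclin 3′ UTRs, while 28.5% and 48.2% of 3′ UTRs of like length held it. The miR-16-5p site was present once each in Ccnd1, Ccnd2, Ccnd3 and Ccne1, and 35.9%, 54.1%, 15.1% and 9.12% of 3′ UTRs of like length held it. Ccne2 and Ccnf each held 1 miR-34a-5p site (18.6% and 18.7% at like length) and Ccnf alone held a let-7a-5p site (11%). The D-type and E-type sites are printed from the GENCODE transcripts with the site in capitals and 11 bases on each side, since these genes carry the results on P-bodies.
Ccnd1, miR-291a-3p site, chr7:144931666-144931694, minus strand: ttccatttcaaAGCACTTttggtcagcta
Ccnd2, miR-291a-3p site, chr6:127129330-127129358, minus strand: tccattagaaaAGCACTTtgaaaattttg
Ccnd1, miR-16-5p site, chr7:144930384-144930412, minus strand: gcatgccaccaTGCTGCTggcccgggggg
Ccnd2, miR-16-5p site, chr6:127128531-127128559, minus strand: gtttcacggtgTGCTGCTattttagaaac
Ccnd3, miR-16-5p site, chr17:47599283-47599311, plus strand: gttgctttgctTGCTGCTtagcttctgtg
Ccne1, miR-16-5p site, chr7:38098013-38098041, minus strand: tattttgtaagTGCTGCTatgtctatcaa
Ccne2, miR-34a-5p site, chr4:11203183-11203211, plus strand: ctaaggagttaCACTGCCattcttttact

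Some exons of these genes overlap a gene on the opposite strand, and reads there cannot be told apart where strand is not kept. The polysome and total RNA libraries were made with a directional kit. Whether their counting used strand is not stated in the sources used here. The shared exon bases were 609 between Ccne2 and Ints8, 510 between Ccna2 and Exosc9, 1100 between Ccnd1 and LTO1, and 361 between Ccnd3 and Bysl, and 368 and 372 between Ccnd2 and a pair of antisense RNAs. Ccnb1 resembled 5 annotated pseudogenes at 94.4% to 99.2% identity and Ccnd3 resembled Ccnd3-ps at 96.3%, so their counts may be split. In the Ago2 KO table Gm12856 held 2 to 9 reads per library and Gm4870 held 0, beside 3663 to 6297 for Ccnb1. Ccnd3-ps held 0 to 1 there, beside 2695 to 4454 for Ccnd3. Log2 fold changes of the overlapping coding genes in P-bodies stand beside the results of Ccne2, Ccna2, Ccnd1 and Ccnd3, and their cytoplasm differences were not examined. Of the antisense RNAs at Ccnd2, 9330179D12Rik held 0 to 44 reads per library in the P-body table, 0 to 1 in the polysome table and 0 to 3 in the Ago2 KO table, where Gm43126 held 0 to 5.

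Which cyclin mRNAs sit in P-bodies, and whether this differs with cell state, was asked by comparing P-body with cytoplasm libraries. A gene was called when its adjusted p was under 0.05 in edgeR's quasi-likelihood test, with Benjamini-Hochberg adjustment over all genes tested. In naive ES cells 5 of the 9 cyclins were called, 4 higher and 1 lower in P-bodies, where 38% of all tested genes were called (22.6% higher and 15.4% lower). In primed ES cells 8 were called, 5 higher and 3 lower, against 50.7% of all genes (26.5% higher, 24.2% lower). In MEFs 6 were called, 4 higher and 2 lower, against 55.3% (26.6% higher, 28.7% lower). In Ago2 KO ES cells 1 was called, higher, against 6.51% (5.47% higher, 1.05% lower). At day 3 none of the 9 was called in the control (0.646% of all genes) and 2 were called higher with the Nudt21 knockdown (21.9%, of which 9.04% higher and 12.8% lower). In the day 3 control, 1 cyclin and 3899 of 15786 genes had an unadjusted p under 0.05, and DESeq2 called 1 cyclin. The median log2 fold change of the 9 was 0.30 in the naive state, 0.15 in the primed state and 0.24 for MEFs, beside medians of -0.06, 0.00 and 0.03 over all genes. It was 0.11 in the day 3 control, 0.14 with the Nudt21 knockdown and -0.09 in Ago2 KO cells, beside -0.01, 0.00 and 0.04. The plot of levels by library shows both fractions of the first 5 conditions.

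**Figure D1:**
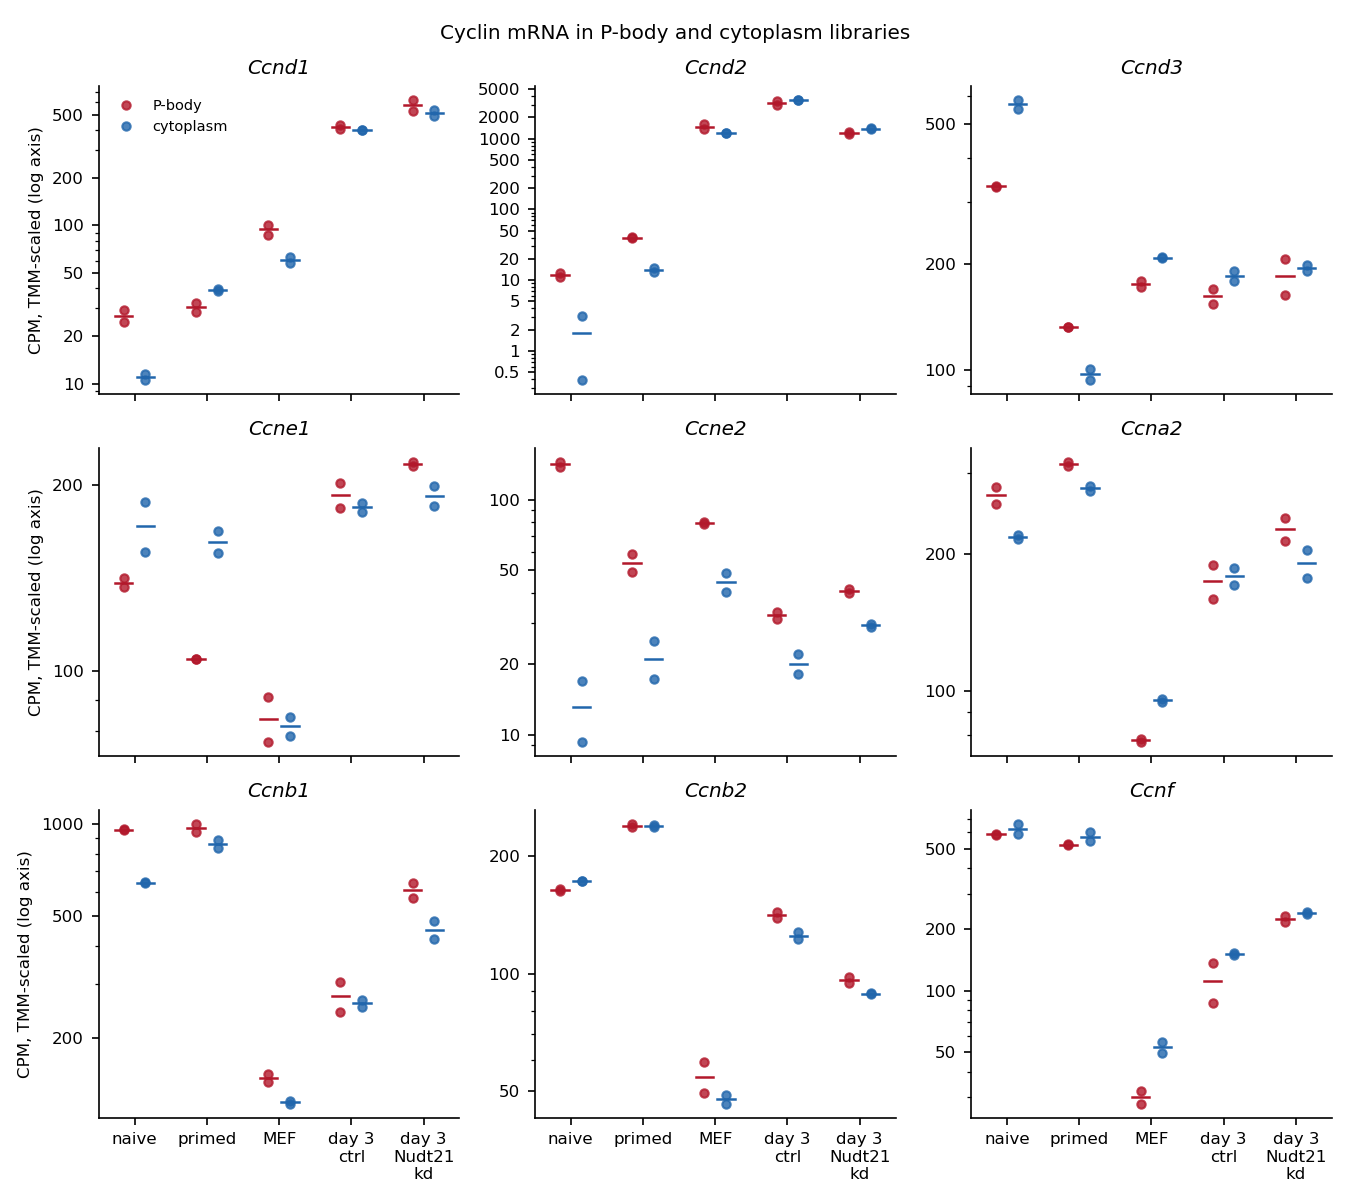
Level of each cyclin mRNA (CPM after TMM scaling, log axis) in every P-body (red) and cytoplasm (blue) library of naive ES cells, primed ES cells, MEFs and day 3 cells with control or Nudt21 shRNA. Points are libraries and short lines are means of 2. Ccne2 in naive cells stands at 138 and 145 CPM in P-bodies against 9.34 and 16.9 CPM in cytoplasm.

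Ccne2, which encodes cyclin E2, had the largest P-body enrichment of the 9 in naive and in Ago2 KO cells, although without naive cytoplasm replicate 2 the naive value of Ccnd2 (4.88) lay above that of Ccne2 (3.94). Naive P-bodies held it at 145 and 138 CPM, and naive cytoplasm at 9.34 and 16.9 CPM. The groups were far apart, with a log2 fold change of 3.43 ± 0.28 (SE, n = 2 per group, edgeR adjusted p = 0.000818), which ranked 224 among 15630 genes. Ago2 KO P-bodies held it at 132 and 164 CPM, and Ago2 KO cytoplasm at 14.4 and 9.99 CPM. The log2 fold change there was 3.60 ± 0.30 (edgeR adjusted p = 0.00209), rank 112 among 16808 genes. Leaving out any 1 library kept it between 3.06 and 3.94 in naive cells and between 3.33 and 3.77 in Ago2 KO cells, called each time.

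Ccne2 was also higher in P-bodies elsewhere, by less. In primed cells it measured 58.8 and 49.1 CPM in P-bodies against 24.9 and 17.2 CPM in the cytoplasm, which gave a log2 value of 1.35 ± 0.15 (edgeR adjusted p = 9.59e-06). In MEFs it stood at 79.0 and 80.4 CPM against 40.6 and 48.9 CPM, a log2 fold change of 0.88 ± 0.12 (edgeR adjusted p = 0.000199). Both groups were apart in each case. In the day 3 control it stood at 33.3 and 31.1 CPM against 22.1 and 18.1 CPM, and the log2 fold change of 0.73 ± 0.17 was not called (edgeR adjusted p = 0.0848). With the Nudt21 knockdown it stood at 41.5 and 40.3 CPM against 29.6 and 28.7 CPM, a log2 fold change of 0.47 ± 0.11 (edgeR adjusted p = 0.0154), and the call was lost when all groups of the table shared 1 fit (adjusted p = 0.119) and without cytoplasm replicate 1 (0.143) or 2 (0.132). Ints8, which overlaps Ccne2, had log2 fold changes of 0.72 ± 0.10 (naive), 0.11 ± 0.08 (primed), 0.00 ± 0.09 (MEFs), 0.16 ± 0.14 (day 3 control), 0.18 ± 0.10 (knockdown) and 0.11 ± 0.24 (Ago2 KO), below Ccne2 each time. In the Ago2 KO table Ints8 held 666 to 924 reads per library and Ccne2 151 to 2903.

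The paralog Ccne1 was called higher in P-bodies in none of the 6 comparisons, and lower in primed cells. In naive cells it measured 141 and 137 CPM in P-bodies against 188 and 156 CPM in the cytoplasm, which gave a log2 value of -0.31 ± 0.12 that was not called (edgeR adjusted p = 0.108). In primed cells it fell from 169 and 155 CPM in cytoplasm to 105 CPM in both P-body libraries, a log2 fold change of -0.65 ± 0.07 (edgeR adjusted p = 4.92e-06). In MEFs, day 3 cells and Ago2 KO cells its log2 fold changes lay between -0.09 and 0.16, none of them called. In naive cytoplasm Ccne1 stood at 86.0 CPM per kilobase of transcript and Ccne2 at 4.36 CPM per kilobase (means of 2 libraries).

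**Figure D2:**
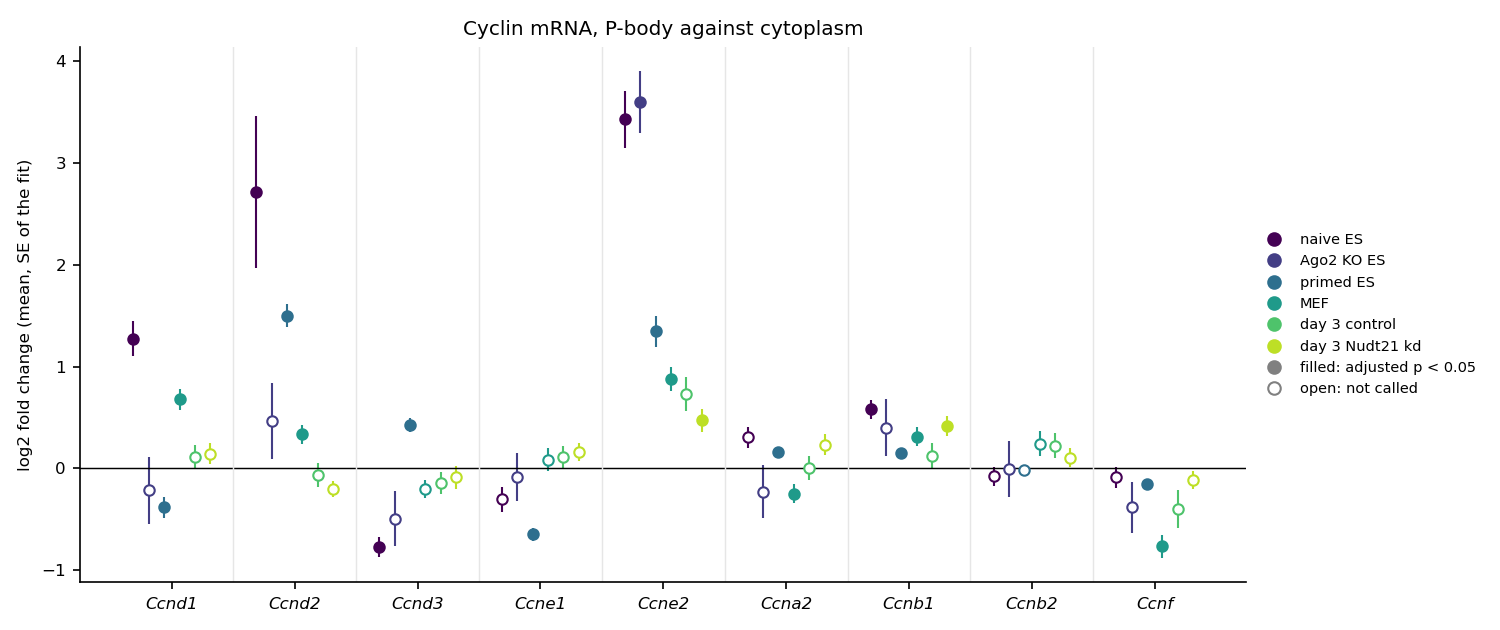
Log2 fold change of each cyclin mRNA, P-body against cytoplasm, in the 6 cell conditions (points, bars are the SE of the edgeR fit, filled points passed an adjusted p of 0.05, open points did not). Ccne2 lies above 0 in all 6 conditions and highest in naive (3.43) and Ago2 KO (3.60) ES cells, while Ccnd3 lies below 0 in naive cells and above 0 in primed cells.

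Among the D-type cyclins, Ccnd1 and Ccnd2 were higher in naive P-bodies and Ccnd3 was lower. Ccnd1 measured 24.4 and 29.1 CPM in naive P-bodies against 10.6 and 11.5 CPM in the cytoplasm, which gave a log2 value of 1.27 ± 0.17 (edgeR adjusted p = 0.00397). In primed cells the order was turned round, with 32.2 and 28.4 CPM in P-bodies below 39.4 and 38.6 CPM in cytoplasm (log2 fold change -0.38 ± 0.10, edgeR adjusted p = 0.00788). The naive call was lost without P-body replicate 2 (adjusted p = 0.0762), and so was the primed call (0.0938). In MEFs Ccnd1 was again higher, at 101 and 87.6 CPM against 58.2 and 63.4 CPM (0.68 ± 0.10 on the log2 scale, edgeR adjusted p = 0.000478). LTO1, which overlaps Ccnd1, had log2 fold changes of -0.35 ± 0.21 (naive), 0.27 ± 0.17 (primed), 0.42 ± 0.11 (MEFs), 0.40 ± 0.19 (day 3 control) and 0.20 ± 0.15 (knockdown), and in the Ago2 KO table, where it is named Oraov1, it had -0.34 ± 0.35.

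Ccnd2 was scarce in ES cells, so its naive value is loose. It measured 11 and 12.4 CPM in naive P-bodies against 0.392 and 3.15 CPM in the cytoplasm, the latter from 5 and 41 reads. The log2 fold change was 2.72 ± 0.75 (edgeR adjusted p = 0.0384). It became 1.90 without cytoplasm replicate 1 and 4.88 without cytoplasm replicate 2, and the call was lost without P-body replicate 1 (adjusted p = 0.113) or P-body replicate 2 (adjusted p = 0.132). In primed cells, where it was more abundant, the values were 39.7 and 40.2 CPM in P-bodies and 13.1 and 14.7 CPM in cytoplasm. That log2 fold change of 1.5 ± 0.11 (edgeR adjusted p = 3.31e-07) held without any 1 library, between 1.42 and 1.58. In MEFs, where Ccnd2 was the most abundant cyclin per kilobase, it measured 1371 and 1594 CPM in P-bodies against 1208 and 1218 CPM (0.33 ± 0.09 on the log2 scale, edgeR adjusted p = 0.0141), a call that was lost in the fit over all groups (adjusted p = 0.257) and without MEF cytoplasm replicate 1 (0.136) or 2 (0.110).

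Ccnd3 moved the other way between the ES cell states. In naive cells it measured 332 and 334 CPM in P-bodies against 586 and 554 CPM in the cytoplasm, which gave a log2 value of -0.78 ± 0.09 (edgeR adjusted p = 0.00273) that was lost without P-body replicate 1 (0.0926) or 2 (0.0886). In primed cells it measured 133 CPM in both P-body libraries and 93.9 and 101 CPM in cytoplasm, a log2 fold change of 0.42 ± 0.07 (edgeR adjusted p = 0.000215). In MEFs and at day 3 its log2 fold changes lay between -0.21 and -0.09 and were not called. Bysl, which overlaps Ccnd3, had log2 fold changes of -0.88 ± 0.11 in naive and -0.46 ± 0.07 in primed cells, so that it had the sign of Ccnd3 in naive but not in primed cells. Its values were -0.18 ± 0.11 in MEFs, -0.08 ± 0.13 in the day 3 control, -0.07 ± 0.09 with the knockdown and 0.09 ± 0.26 in Ago2 KO cells.

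In Ago2 KO ES cells the D-type cyclins were not called. Ccnd1 measured 5.58 and 4.17 CPM in P-bodies against 4.73 and 6.61 CPM in the cytoplasm, groups that overlap (log2 fold change -0.22 ± 0.33, edgeR adjusted p = 0.741). Ccnd2 stood at 3.93 and 4.28 CPM against 3.62 and 2.32 CPM (0.47 ± 0.37 on the log2 scale, edgeR adjusted p = 0.490). Ccnd3 stood at 171 and 198 CPM against 260 and 260 CPM (-0.49 ± 0.27, edgeR adjusted p = 0.299). Beside the naive log2 fold changes of 1.27, 2.72 and -0.78 these values were not tested, since the Ago2 KO libraries were counted by another pipeline and no wild type of that table was analysed here. The Ago2 KO fit called 1095 of 16808 genes (6.51%), against 4178 with a replicate block and 5617 without cytoplasm replicate 1.

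The S phase cyclin Ccna2 and the B-type cyclins showed small differences. Ccnb1, encoding the main mitotic cyclin B1, measured 962 and 955 CPM in naive P-bodies against 644 and 640 CPM in the cytoplasm, which gave a log2 value of 0.58 ± 0.09 (edgeR adjusted p = 0.00605) that was not called without either P-body replicate (0.159 and 0.152). Its log2 fold change was 0.15 ± 0.05 in primed cells (edgeR adjusted p = 0.0197), 0.31 ± 0.09 in MEFs (0.0180) and 0.42 ± 0.09 with the Nudt21 knockdown (0.0121), all called. The primed and MEF calls were lost in the fit over all groups (adjusted p = 0.293 and 0.0570). Without 1 library the primed call was lost for P-body replicate 1 (0.269) and cytoplasm replicate 1 (0.0536), the MEF call for cytoplasm replicate 1 (0.165) and 2 (0.118), and the knockdown call for cytoplasm replicate 1 (0.0555) and 2 (0.175). Ccnb2, the other B-type cyclin, was called in none of the 6 comparisons, with log2 fold changes between -0.08 and 0.24.

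Ccna2, encoding cyclin A2, stood at 281 and 257 CPM in naive P-bodies against 220 and 215 CPM in cytoplasm, which was not called (0.30 ± 0.10 on the log2 scale, edgeR adjusted p = 0.0636). It was called higher in primed P-bodies (0.16 ± 0.05, edgeR adjusted p = 0.0212) and lower in MEF P-bodies (-0.25 ± 0.09, edgeR adjusted p = 0.0438). The primed call was lost with DESeq2 (adjusted p = 0.0660), in the fit over all groups (0.263) and without P-body replicate 1 (0.169) or 2 (0.106). The MEF call was lost with DESeq2 (0.0846), both other filters (0.0504 and 0.0617), other scaling (0.0541) and the replicate block (0.0709), and without cytoplasm replicate 1 (0.282) or 2 (0.255). Exosc9, which overlaps Ccna2, had log2 fold changes of 0.29 ± 0.11 (naive), 0.43 ± 0.09 (primed), 0.63 ± 0.11 (MEFs), 0.22 ± 0.12 (day 3 control), 0.38 ± 0.12 (knockdown) and 0.33 ± 0.30 (Ago2 KO). Ccnf, encoding cyclin F, was the cyclin with the lowest value in MEF P-bodies, at 32.2 and 27.8 CPM against 55.7 and 49.5 CPM (-0.77 ± 0.12 on the log2 scale, edgeR adjusted p = 0.000417). It was lower by less in primed cells (-0.15 ± 0.05, edgeR adjusted p = 0.0259, lost in the fit over all groups at 0.584, and without P-body replicate 1 at 0.151, P-body replicate 2 at 0.0988 or cytoplasm replicate 2 at 0.12).

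P-body content is known to lean towards AU-rich transcripts, and in ES and day 3 cells enrichment moved with transcript GC over all genes. When the tested genes of naive cells with an annotated transcript (91.4%) were put in 10 equal bins by GC, the median log2 fold change was 1.53 in the lowest bin, with 73.6% of its genes called higher, and -0.68 in the highest bin, with 1.33% called higher. The corresponding medians were 0.62 and -0.30 in primed cells and 1.01 and -0.37 in Ago2 KO cells. At day 3 they were 0.35 and -0.14 in the control and 0.25 and -0.25 with the Nudt21 knockdown. In MEFs the median did not fall steadily with GC. It was 0.26 in the lowest bin, -0.19 in the bin of 52.1% to 54% GC and 0.11 in the highest bin. The part of base composition in the cyclin values was not tested.

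Most cyclins in naive cells lay near the median of their GC bin. Ccna2 (0.30 against a bin median of 0.43), Ccnb1 (0.58 against 0.77), Ccnb2 (-0.08 against -0.01), Ccne1 (-0.31 against -0.33), Ccnf (-0.09 against -0.33) and Ccnd3 (-0.78 against -0.58) all lay between the 35.1 and 67.9 percentiles of theirs. Ccnd2 (2.72 against 0.22) and Ccnd1 (1.27 against -0.17) stood at the 98 and 95 percentiles. Ccne2, in the lowest bin, stood at the 91.9 percentile of it in naive cells, at 79.7 in primed cells, at 75.8 in MEFs and at 99.4 in Ago2 KO cells. In primed cells Ccnd2 (percentile 94.8) and Ccnd3 (88.3) lay highest in their bins and Ccne1 lowest (24.6).

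**Figure D3:**
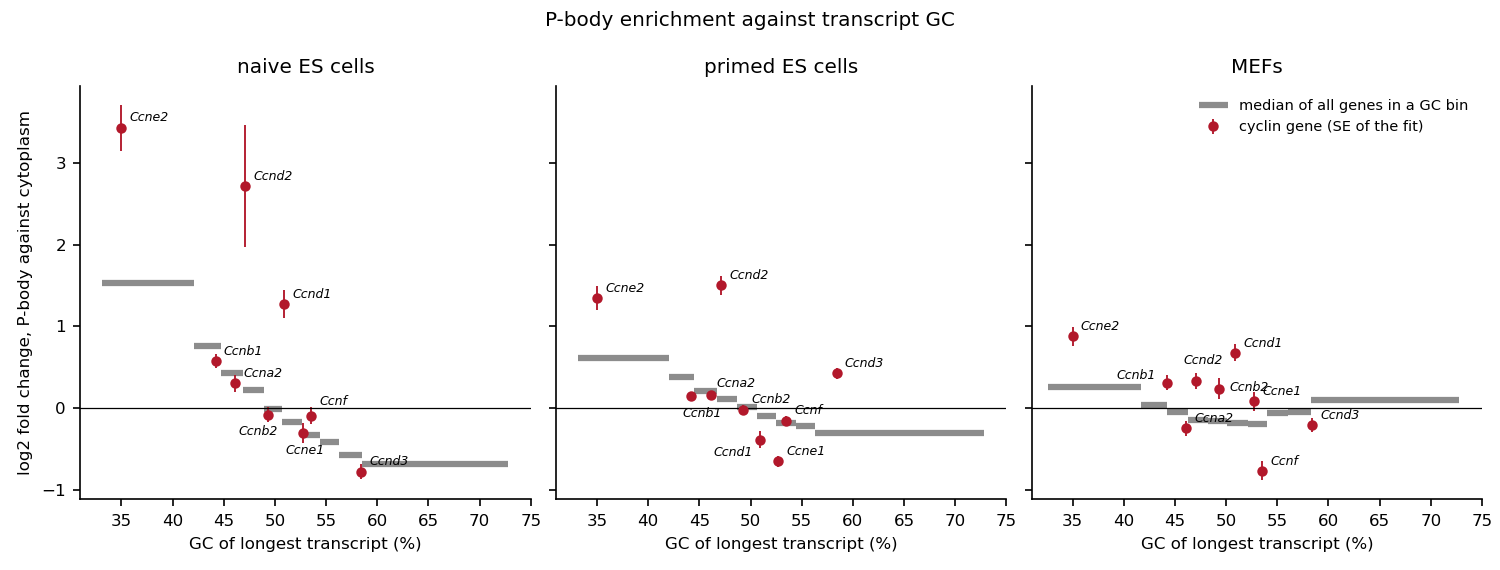
Log2 fold change, P-body against cytoplasm, of each cyclin gene (red points, bars are the SE of the edgeR fit) against the GC content of its longest transcript, in naive ES cells, primed ES cells and MEFs. Grey bars are the median of all tested genes in each of 10 GC bins and span that bin. In naive cells the grey bars fall from 1.53 to -0.68, and Ccne2, Ccnd2 and Ccnd1 lie furthest above the bar of their own bin.

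Whether enrichment itself differed between cell states was tested as a difference of log2 fold changes. Between primed and naive cells 3 of the 9 cyclins were called, 1 higher and 2 lower, where 25.3% of all genes were (11.4% higher, 13.9% lower). Ccne2 differed by -1.95 ± 0.36 (edgeR adjusted p = 0.00471), Ccnd1 by -1.52 ± 0.20 (adjusted p = 0.00111) and Ccnd3 by 1.34 ± 0.11 (adjusted p = 0.000185). Ccnd2 differed by -1.07 ± 0.64, which was not called (adjusted p = 0.264) and ranged from -3.24 without naive cytoplasm replicate 2 to -0.26 without replicate 1.

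Between MEFs and naive cells 6 were called, 3 higher and 3 lower, against 41.3% of all genes (19.8% higher, 21.5% lower). This test uses the same naive libraries, and the median of all genes lay at 0.17. Ccne2 differed by -2.36 ± 0.31 (edgeR adjusted p = 0.000212), Ccnd2 by -2.19 ± 0.56 (0.0107, not called with DESeq2 at 0.0917 or without naive P-body replicate 2 at 0.0663) and Ccnf by -0.49 ± 0.15 (0.0282). The Ccnd2 difference ran from -4.37 without naive cytoplasm replicate 2 to -1.36 without replicate 1. Without naive P-body replicate 1 or 2 the Ccnf call was lost (0.0868 and 0.103). Ccnd3 differed by 0.76 ± 0.13 (edgeR adjusted p = 0.00116), Ccne1 by 0.58 ± 0.18 (0.0285) and Ccnb2 by 0.51 ± 0.17 (0.0359). With no filter on low counts Ccne1 and Ccnb2 were not called (0.218 and 0.348), nor with all groups in 1 fit (0.0929 and 0.141), nor without either naive P-body, MEF P-body or MEF cytoplasm library (adjusted p from 0.0555 to 0.506). The Ccnd3 call was lost without MEF cytoplasm replicate 1 (0.0539) or 2 (0.0541). Beside these values, the 5 nuclear RNAs (Malat1, Neat1, Meg3, Kcnq1ot1 and Mirg) summed to 5385 and 7430 CPM in MEF P-bodies and to 1146 and 1220 CPM in MEF cytoplasm. The sums were 582 to 612 and 198 to 261 CPM in naive cells. Taken singly, 5 were called higher in MEF P-bodies (26.6% of all genes). In naive P-bodies 2 were called higher and 1 lower (22.6% and 15.4% of all genes). The part of these RNAs in the MEF values was not tested. From MEFs to the day 3 control and from the day 3 control to the Nudt21 knockdown 0 cyclins were called, against 14.7% and 0.0118% of all genes (edgeR, 1 and 0 cyclins with an unadjusted p under 0.05, DESeq2 1 and 0). Both tests use the day 3 control libraries. The cyclin at an unadjusted p under 0.05 was Ccnd1, with a difference of -0.52 ± 0.16 (edgeR adjusted p = 0.0553).

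Cytoplasm levels were then compared between cell types. In bulk samples fewer cells in a cell cycle phase and less RNA per cell cannot be told apart. Between MEF and naive cytoplasm all 9 were called, 3 higher and 6 lower in MEFs, where 71.8% of all genes were called (35.9% higher, 36% lower). Ccnd2 stood at 1208 and 1218 CPM in MEFs against 0.392 and 3.15 CPM, a log2 fold change of 9.41 ± 0.65 (edgeR adjusted p = 0.000162) that became 8.54 without naive replicate 1 and 11.55 without naive replicate 2. Ccnd1 was higher by 2.46 ± 0.14 (9.78e-05) and Ccne2 by 1.77 ± 0.30 (0.00378) on the log2 scale. Ccnf fell in MEFs from 661 and 592 CPM to 55.7 and 49.5 CPM (-3.57 ± 0.13 on the log2 scale, edgeR adjusted p = 3.65e-05). On the same scale the B-type cyclins fell too, Ccnb1 by 2.38 ± 0.10 (4.91e-05) and Ccnb2 by 1.85 ± 0.10 (8.94e-05). Ccnd3 was also called lower, at 208 to 210 CPM in MEFs against 554 to 586 CPM in naive cells. So were Ccne1 (78.7 to 84.4 against 156 to 188 CPM) and Ccna2 (94.7 to 96.2 against 215 to 220 CPM).

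Between primed and naive cytoplasm 6 cyclins were called, 5 higher and 1 lower in primed cells, against 43.8% of all genes (21.6% higher, 22.1% lower). The D-type cyclins moved in opposite directions, with Ccnd3 falling from 586 and 554 CPM to 93.9 and 101 CPM (-2.54 ± 0.11 on the log2 scale, edgeR adjusted p = 0.000154). Ccnd1 rose by 1.83 ± 0.17 (edgeR adjusted p = 0.000856) and Ccnd2 by 2.97 ± 0.72 (0.0198), the latter 2.15 without naive replicate 1 and 5.14 without naive replicate 2. Ccnb2 (0.48 ± 0.10), Ccnb1 (0.44 ± 0.10) and Ccna2 (0.37 ± 0.10) rose by less, the last not called with DESeq2 (adjusted p = 0.0615). Without primed cytoplasm replicate 1 or 2 only 2 of the 9 were called, Ccnd1 and Ccnd3. Ccne1, with a log2 difference of -0.07 ± 0.14, overlapped between the states.

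The order of the cytoplasm levels differed by gene. Ccnd3 was highest in naive cells, Ccna2, Ccnb1 and Ccnb2 in primed cells, and Ccnd2 in the day 3 control, where it stood at 3464 and 3519 CPM. Ccnf was high in naive (592 to 661 CPM) and primed cells (544 to 602 CPM), which overlapped. Ccne2 was highest in MEF cytoplasm at 40.6 and 48.9 CPM, and its primed and day 3 control values overlapped. For Ccne1 the day 3 knockdown, day 3 control, naive and primed groups each overlapped the next lower one, over 155 to 199 CPM, with MEFs below them at 78.7 and 84.4 CPM.

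After 3 days of reprogramming 8 of the 9 cyclins differed in the cytoplasm from uninduced MEFs, 7 higher and 1 lower, against 69.3% of all genes (35.5% higher, 33.7% lower). Ccnd1 rose from 58.2 and 63.4 CPM to 401 and 404 CPM (2.79 ± 0.07 on the log2 scale, edgeR adjusted p = 6.51e-15). Ccnf (1.59 ± 0.07), Ccnd2 (1.58 ± 0.05), Ccnb2 (1.45 ± 0.07), Ccne1 (1.24 ± 0.07), Ccnb1 (1.13 ± 0.06) and Ccna2 (0.96 ± 0.07) also rose on the log2 scale, and each was called. Ccne2 fell from 40.6 and 48.9 CPM to 22.1 and 18.1 CPM (-1.10 ± 0.12 on the log2 scale, edgeR adjusted p = 5.86e-07), opposite to its paralog. Between the same libraries the fibroblast markers went from 39987 to 44344 CPM in MEFs to 5269 to 5426 CPM, the 12 S phase genes from 1214 to 1268 CPM to 3075 to 3139 CPM and the 12 mitotic genes from 1211 to 1213 CPM to 1810 to 1852 CPM, and their part in the cyclin values was not tested.

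Nudt21 encodes a subunit of the cleavage factor that selects polyadenylation sites, and its loss is known to shift many mRNAs to shorter 3′ UTRs. With the knockdown 6 of the 9 cyclins differed in the day 3 cytoplasm, 4 higher and 2 lower, against 49.6% of all genes (24.6% higher, 25% lower). Ccnd2 fell from 3464 and 3519 CPM to 1355 and 1394 CPM (-1.34 ± 0.05 on the log2 scale, edgeR adjusted p = 1.07e-12). Ccnb2 fell from 128 and 123 CPM to 88.7 and 89.1 CPM (-0.49 ± 0.07, adjusted p = 1.78e-05). Ccnb1 rose from 266 and 252 CPM to 482 and 420 CPM (0.80 ± 0.07, adjusted p = 2.47e-08) and Ccnf from 154 and 150 CPM to 244 and 239 CPM (0.67 ± 0.06, adjusted p = 1.26e-07). Ccne2 (0.54 ± 0.12, adjusted p = 0.000912) and Ccnd1 (0.36 ± 0.06, adjusted p = 0.000173) rose as well in edgeR, and in the fit over all groups Ccne2 was not called (0.0516). Gene counts do not show which 3′ end was used. The 6 fibroblast markers summed to 1618 to 1625 CPM in the knockdown and to 5269 to 5426 CPM in the control, and the 6 pluripotency markers to 706 to 802 and 321 to 331 CPM, and their part in these values was not tested.

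How far the cyclin mRNAs were loaded on ribosomes was read from polysome against total RNA. In control ES cells 2 of the 9 were called, both lower in polysomes, where 42.9% of all genes were called (18.8% higher, 24.1% lower), and in DDX6-depleted cells 3 were called, all lower, against 50.9% (24% higher, 26.8% lower). Ccnb1 stood at 250, 238 and 266 CPM in control polysomes and at 412, 408 and 369 CPM in total RNA. The groups were apart, with a log2 fold change of -0.66 ± 0.07 (n = 3 per group, edgeR adjusted p = 5.57e-07). Ccnf stood at 203 to 217 CPM in the 3 polysome libraries against 314, 318 and 329 CPM, a log2 fold change of -0.61 ± 0.06 (edgeR adjusted p = 4.33e-07).

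The same 2 genes had log2 fold changes of -0.62 ± 0.04 and -0.65 ± 0.04 after DDX6 depletion (edgeR adjusted p = 4.45e-11 and 1.08e-11). Ccnb1 was then at 260, 243 and 237 CPM in polysomes and at 389, 370 and 381 CPM in total RNA. Ccne1 was the third, at 106, 107 and 108 CPM in polysomes against 117, 125 and 123 CPM (-0.19 ± 0.04, edgeR adjusted p = 0.000865). In control cells its log2 fold change was -0.14 ± 0.06 (adjusted p = 0.0904).

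Ccne2 was at 32.7, 32.9 and 38.4 CPM in control polysomes and at 38.8, 34.7 and 34.8 CPM in total RNA, groups that overlap (-0.07 ± 0.08 on the log2 scale, edgeR adjusted p = 0.532). After DDX6 depletion it was at 35.7, 34.0 and 32.7 CPM against 32.4, 30.6 and 30.3 CPM, a log2 fold change of 0.14 ± 0.06 that was not called (adjusted p = 0.0557). Ints8, which overlaps it, had -0.79 ± 0.08 and -0.80 ± 0.05. Ccnd1, Ccnd3, Ccna2 and Ccnb2 had log2 fold changes between -0.11 and 0.10 in both conditions. Ccnd2 was at 1.46 to 3.21 CPM in these 12 libraries, and its log2 fold changes of -0.29 ± 0.19 and 0.04 ± 0.25 are loose.

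**Figure D4:**
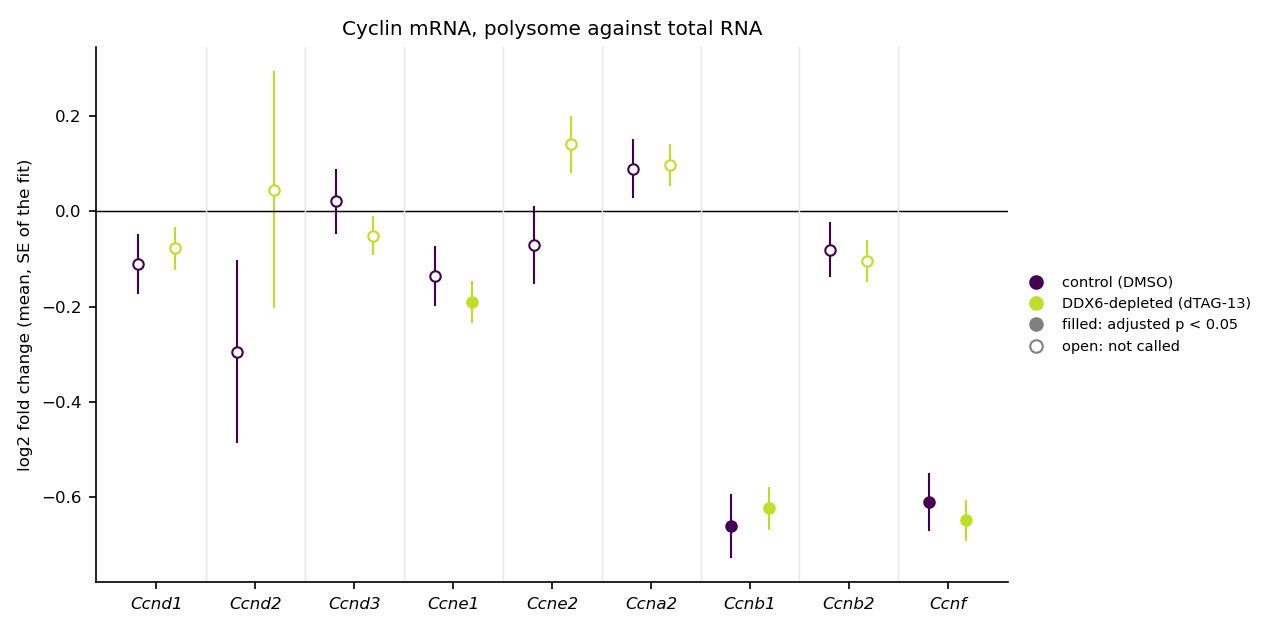
Log2 fold change of each cyclin mRNA, polysome against total RNA, in control (DMSO) and DDX6-depleted (dTAG-13) ES cells (points, bars are the SE of the edgeR fit, filled points passed an adjusted p of 0.05, open points did not). Ccnb1 and Ccnf lie between -0.66 and -0.61 in both conditions.

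DDX6 is an RNA helicase on which P-bodies depend, and whether its loss changed ribosome loading of the cyclins was tested as the change in polysome against total RNA. None of the 9 was called, and 0% of 16345 genes was called (edgeR, with 0 cyclins and 844 genes at an unadjusted p under 0.05, and DESeq2 calling 0 cyclins). Genes were tested singly here, while the study reports raised ribosome occupancy for P-body-enriched mRNAs as a set after DDX6 loss. The largest values were 0.34 ± 0.34 for Ccnd2 and 0.21 ± 0.10 for Ccne2 (adjusted p = 0.923 and 0.879), and the other 7 lay between -0.08 and 0.03. Within total RNA 0 cyclins were called between DDX6-depleted and control cells (3.31% of all genes, 2 cyclins at an unadjusted p under 0.05). Ccne2 stood at 32.4, 30.6 and 30.3 CPM there against 38.8, 34.7 and 34.8 CPM in controls, apart by -0.23 ± 0.07 on the log2 scale without a call (edgeR adjusted p = 0.0960). Ccnd1 was apart by -0.19 ± 0.06 (adjusted p = 0.0987). Within polysome RNA 0 were called (4.26% of all genes, 1 cyclin at an unadjusted p under 0.05), and Ccnd1 was apart by -0.15 ± 0.04 (edgeR adjusted p = 0.0597). DESeq2 called 0 cyclins in either.

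The rest of the cell cycle machinery, in lists drawn up with earlier results of these data known, gives the setting. A list of 15 other cyclins held the transcriptional cyclins C, H, K and T, and also Ccna1 and Ccnb3 of the A and B types. Of the 14 tested, 9 were higher and 0 lower in naive P-bodies (22.6% and 15.4% of all genes). Their median log2 fold change was 0.71, beside -0.06 over all genes. Ccnt1, a subunit of the elongation factor P-TEFb, had the largest called value among those with a mean of at least 10 CPM, at 2.97 ± 0.20 (edgeR adjusted p = 0.000549). In primed cells 6 of 15 were higher and 3 lower (26.5% and 24.2% of all genes), with a median of 0.28, and Ccnt1 was at 1.70 ± 0.06, while Ccnl2, a splicing-linked cyclin, was at -0.61 ± 0.07. In MEFs 5 of 13 were higher and 2 lower (26.6% and 28.7% of all genes), with a median of 0.10 and Ccnl2 now at 1.21 ± 0.11.

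The next counts in naive P-bodies stand against 22.6% of all genes higher and 15.4% lower. Of the 10 CDKs and their activators, 3 were higher and 3 lower, among them Cdk6, the kinase partner of the D-type cyclins (2.14 ± 0.17 on the log2 scale), and Cdc25b, a phosphatase that activates CDK1 (-0.81 ± 0.12). Of 9 CDK inhibitors, 1 was higher, the p21 gene Cdkn1a (0.76 ± 0.18), and 1 lower, the inhibitory kinase gene Pkmyt1 (-1.03 ± 0.12). Of 13 RB and E2F genes, 7 were higher and 1 lower, with Rbl1 at 2.14 ± 0.11 and E2f1 at -0.59 ± 0.15. In MEFs that list stood the other way, with 1 higher and 7 lower (26.6% and 28.7% of all genes), Rbl2 at -1.41 ± 0.13. The values in this paragraph passed edgeR's test.

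The genes that act in or regulate cyclin degradation were mixed in naive P-bodies, with 5 of 16 higher and 5 lower (22.6% and 15.4% of all genes). Fbxw7, the F-box protein that targets cyclin E for degradation, was higher by 1.97 ± 0.11 on the log2 scale and Ube2s, a ubiquitin-conjugating enzyme of the anaphase-promoting complex, was at -1.05 ± 0.13. Of 12 mitotic genes, 8 were higher and 0 lower in naive P-bodies, led by the kinesin gene Cenpe (1.95 ± 0.11), against the same shares. In primed P-bodies 4 were higher and 4 lower (26.5% and 24.2% of all genes). In MEF P-bodies 1 was higher and 8 lower (26.6% and 28.7% of all genes), with Kif11 at -1.42 ± 0.16. Of 12 S phase genes, 2 were higher and 0 lower in naive P-bodies, a share of higher genes near that of all genes. The licensing factor gene Cdc6 was at 1.03 ± 0.11 there. In primed P-bodies 1 S phase gene was higher and 6 were lower (26.5% and 24.2% of all genes).

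On polysomes most mitotic and S phase genes were called lower. In control cells 11 of 12 mitotic genes were lower and 1 was higher, with a median log2 fold change of -1.27, and 10 of 12 S phase genes were lower, with a median of -1.44, beside -0.11 for the 9 cyclins and 0.02 over all genes, of which 24.1% were lower and 18.8% higher. Top2a, a topoisomerase, was at -2.12 ± 0.08 and Rrm1, a subunit of ribonucleotide reductase, at -2.14 ± 0.07. Of the degradation genes 10 of 16 were lower and 3 higher. The other cyclins had 7 of 14 higher and 0 lower. After DDX6 depletion the counts were 11 lower and 1 higher of the mitotic genes, 11 lower of the S phase genes and 9 higher of the other cyclins, where 26.8% of all genes were lower and 24% higher. In the change of polysome against total RNA with depletion, where edgeR called 0 of all genes, 0 of these were called. Within polysome RNA, 4 of 12 S phase genes, 2 of 13 RB and E2F genes and 1 of 10 CDK genes were lower after depletion and 2 of 9 CDK inhibitors higher (4.26% of all genes called). Within total RNA, 1 gene each of the other cyclins, the RB and E2F genes and the CDK genes was lower and 1 CDK inhibitor higher (3.31% called).

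The 20 libraries of the P-body table mix P-body and cytoplasm fractions and share cell types and depth. Across them the profiles of Ccna2, Ccnb1 and Ccnf were alike. Their Pearson correlations of log2 CPM were 0.95 for Ccna2 and Ccnb1, 0.94 for Ccna2 and Ccnf and 0.95 for Ccnb1 and Ccnf. Ccnb2 correlated with these genes at 0.84 to 0.90. The correlation was -0.58 for Ccne1 and Ccne2 and 0.87 for Ccnd1 and Ccnd2. Among 10266 genes with a mean of at least 10 CPM, genes most like each cyclin were Ncaph, Bex1 and Exoc6 for Ccna2 (0.97 to 0.98), Epcam and Gdf3 for Ccnb1 (0.97), and Mettl27, Cdca8 and Mapk1ip1 for Ccnb2 (0.97). For the D-type cyclins they were Usp18, Ifit3 and Tgtp2 for Ccnd1 (0.98 to 0.99), Zbtb4, Efemp1 and Cd44 for Ccnd2 (0.98 to 0.99), and Slc25a20, Pgm2 and Jam2 for Ccnd3 (0.93 to 0.95). For Ccne1 they were Fbl, Wdr46 and Prmt3 (0.95 to 0.97) and for Ccne2 Eif5, 4930586N03Rik and Zfp820 (0.96 to 0.97). Ccnf was most like Mir5134, Nsl1 and Mfsd13a (0.984 to 0.998), but Mir5134 lies inside the Ccnf gene on the same strand and shares exon bases with it.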

How the data were processed

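For the P-body libraries the authors aligned Smart-seq reads to mm10 with HISAT2 and deposited featureCounts gene counts on refGene exons, some of them fractions and so estimated counts. The deposited expected counts of the polysome and Ago2 KO libraries came from salmon. SMART-Seq was the study's default for P-body libraries, with snapTotal-seq where it is named, and the preparation of the Ago2 KO libraries in particular is not stated in the sources used here. The 10 deposited tables of the authors' own fold changes and p-values were not used.

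Estimated counts were rounded. Genes with at least 10 reads over the libraries of a fit were tested with edgeR 4.0.16 (TMM scaling, quasi-likelihood, two-sided, R 4.3.3), with each of 19 comparisons fitted on its own groups. The SE is the log2 fold change divided by the root of the test's F. Steps were tested on simulated data. Replicates of a group were compared in 24 pairs by a chi-square test per degree of freedom (1.78 to 306), and none agreed within sampling noise. 3′ UTRs, overlaps and transcript similarity (BLAST 2.17.0, at least 100 aligned bases) used the longest coding transcript in GENCODE M21. Named were the 9 cyclins in every comparison, per pathway list the called gene with the largest change in each direction with a mean of at least 10 CPM, and the 3 genes most like each cyclin. The text gives a selection of these, and 1 gene is not reported here. Cyclins and lists were chosen with earlier results of these data known. Alternatives were DESeq2 1.42.0, other scaling and filters, a replicate block, a fit of all groups and leaving out each library.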

Additional observations from a re-analysis of the deposited data

Results flagged for a closer look

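A test of the difference between 2 cell states passed for these cyclins, in log2 units of P-body against cytoplasm (edgeR, adjusted over all genes). Primed minus naive gave -1.52 for Ccnd1, 1.34 for Ccnd3 and -1.95 for Ccne2. MEF minus naive gave 0.51 for Ccnb2, -2.19 for Ccnd2, 0.76 for Ccnd3, 0.58 for Ccne1, -2.36 for Ccne2 and -0.49 for Ccnf. Of these MEF minus naive calls, only that of Ccne2 was kept in every alternative, as given above. Both sets share the naive libraries. Groups of 2 or 3 libraries are too small for a check on outlying samples.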

How the results depend on the processing

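Of 65 called cyclin values, 61 stayed called with DESeq2, 64 with DESeq2 size factors, 64 with filterByExpr, 62 with no filter beyond 1 read, and 55 of 64 with all groups of a table in 1 fit. Leaving out 1 library kept 256 of 306, and no called value changed direction. The count of called cyclins moved by over 1.5 times as follows, and the cause was not tested. With all groups in 1 fit it was 5 in primed P-bodies, 2 in the day 3 control, 1 with the Nudt21 knockdown, 1 in total RNA after DDX6 depletion and 1 for day 3 control minus MEF. For day 3 control minus MEF it was also 1 with DESeq2, DESeq2 size factors, filterByExpr or no filter. In the day 3 control it was 1 with DESeq2 and 1 with no filter. In polysome RNA after DDX6 depletion it was 1 with filterByExpr. Smaller moves included 7 in naive P-bodies, 4 in MEFs and 3 in control polysomes with all groups in 1 fit, and 7 in primed P-bodies and 5 in MEFs with DESeq2.

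Without 1 library the count ran from 1 (without P-body replicate 2) to 8 (without cytoplasm replicate 2) in naive P-bodies and was 2 without P-body replicate 1. It ran from 5 (without either P-body library) to 7 in primed P-bodies, 3 (without either cytoplasm library) to 8 in MEFs, 0 to 4 (without P-body replicate 1, and 3 without replicate 2) in the day 3 control, 0 (without either cytoplasm library) to 5 (without P-body replicate 2) with the knockdown and 1 to 2 (without cytoplasm replicate 1) in Ago2 KO cells. It ran from 3 to 5 (without total replicate 1) for DDX6-depleted polysomes and 0 to 3 (without control replicate 3) for total RNA after depletion. For differences it ran from 3 to 5 (without either naive cytoplasm library) for primed minus naive, 2 (without naive P-body replicate 2, and 3 without replicate 1) to 7 for MEF minus naive, 0 to 3 (without day 3 control P-body replicate 2, and 1 without replicate 1) for day 3 minus MEF and 0 to 2 (without day 3 control P-body replicate 1) for knockdown minus control. In primed against naive cytoplasm it ran from 2 (without either primed library) to 7.

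Values that changed sign, all uncalled as reported, were Ccnb2 in primed P-bodies (0.0024) and Ccna2 in the day 3 control (-0.037) with all groups in 1 fit, and Ccnb2 in Ago2 KO with filterByExpr (0.00306) or the replicate block (0.016). Without 1 library, log2 fold changes ran from -0.052 to 0.225 for Ccne1 in MEFs, from -0.063 to 0.071 for Ccna2 and -0.214 to 0.069 for Ccnd2 in the day 3 control, and from -0.256 to 0.066 for Ccnd3 with the knockdown. They ran from -0.263 to 0.154 for Ccnb2 and -0.553 to 0.012 for Ccnd1 in Ago2 KO, from -0.019 to 0.091 for Ccnd3 in control polysomes and from -0.212 to 0.269 for Ccnd2 in DDX6-depleted polysomes.

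Same-numbered libraries correlated at -0.0635 to 0.542, and 2 of 3 libraries in each polysome condition correlated best with their own number. The value of 0.542 was that of Ago2 KO cells, where a replicate block called more genes, as given above. Each cytoplasm library was a portion of a sorted lysate. The labels do not state that equal numbers mark the same lysate, and the numbers were not taken as pairs. A replicate block kept 63 of 65 calls. The exceptions were Ccna2 in MEF P-bodies (adjusted p = 0.0709) and in primed against naive cytoplasm (0.0800) in edgeR. Depth limits Ccnd2 most, with 5 and 41 reads in naive cytoplasm. With DESeq2 size factors the all-gene split for primed minus naive was 1589 higher and 2671 lower, beside 1960 and 2389 as reported.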
